A study of Arabidopsis thaliana with 8 samples.

Results

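The libraries labelled msh1 TRAP were compared with those labelled msh1 Total, 2 against 2 of the 8 libraries of the series, to ask which transcripts are enriched on, or depleted from, tagged ribosomes in the mutant. The plants were Arabidopsis thaliana of the Col-0 background, grown in days of 16 h at 22 °C, and the tissue was floral stem. The plant age and the msh1 allele are not stated in the sources used here. The other 4 libraries, WT TRAP and WT Total, carry the Col-0 wild-type label and serve below only to show where the mutant differs. TRAP libraries of both genotypes came from ribosomes pulled down through a FLAG-tagged RPL18 protein made under the MSH1 promoter, so the tag is made where that promoter is active. Whether the plants of the Total libraries carried the transgene is not stated. The labels call the replicates biological but do not say whether TRAP and Total RNA of the same number came from the same plants, so p-values measure the spread between these samples. The counts listed 32833 loci, of which 285 organelle loci were left out. Of the 32548 nuclear loci, 21202 passed a filter on low counts and were tested, and 11346 were not.

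Translating ribosome affinity purification isolates ribosomes by an epitope tag on a ribosomal protein, together with the mRNAs they carry. TRAP RNA is therefore compared with Total RNA of the same tissue, which holds all transcripts of all cells. MSH1 is a MutS homologue of plastids and mitochondria that limits recombination in organelle genomes, and its loss is known for altered growth and stress responses. In bulk samples of this kind, fewer cells of a type and less RNA per cell cannot be told apart.

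Gene counts summed to 10067810 and 11930121 in msh1 Total and to 7978556 and 9712422 in msh1 TRAP. At these depths 3 counts stand for 0.2515 to 0.376 CPM (counts scaled to library size), and this floor covers counting error only. The msh1 TRAP libraries differed from each other more than any other pair, with a chi-square per degree of freedom of 17.58 against 5.21 for msh1 Total. MSH1 itself stood at 27.9 and 30.8 CPM in msh1 Total and at 36.3 and 22.5 CPM in msh1 TRAP, so the groups overlapped. RPL18, whose coding sequence the tag construct shares, stood at 344 and 328 CPM in msh1 Total and at 849 and 1862 CPM in msh1 TRAP. It rose by a log2 fold change of 2.01 ± 0.28 (SE, edgeR adjusted p = 0.000589), and reads of the transgene and of the endogenous gene cannot be told apart. RPL18 did not pass in WT, where its raw counts were 3476 and 3944 in Total and 2167 and 2660 in TRAP. The log2 difference between fractions was larger in msh1 than in WT by 2.06, and the cause was not tested.

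Of the 21202 genes, 5553 (26.2%) passed an adjusted p of 0.05 in edgeR's quasi-likelihood test, 2991 higher (14.1%) and 2562 lower (12.1%) in msh1 TRAP. Of these, 953 (4.49% of all tested) were at least 2-fold higher and 741 (3.49%) at least 2-fold lower. In WT the same test called 1076 genes (5.07%), with 3.41% higher and 1.67% lower. These counts rest on 1 fit of all 4 groups, and a fit of the 4 libraries of each genotype alone called 3548 genes in msh1 and 1871 in WT. The difference between the genotypes, tested as an interaction, passed for 3312 genes (15.6%), with 9.01% higher and 6.61% lower in msh1. Counts within the gene lists below are to be set against these shares of all genes. The msh1 count was 2538 with msh1 Total 1 left out, 2218 with msh1 Total 2 left out, 3670 with msh1 TRAP 2 left out and 7114 with msh1 TRAP 1 left out.

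**Figure D1:**
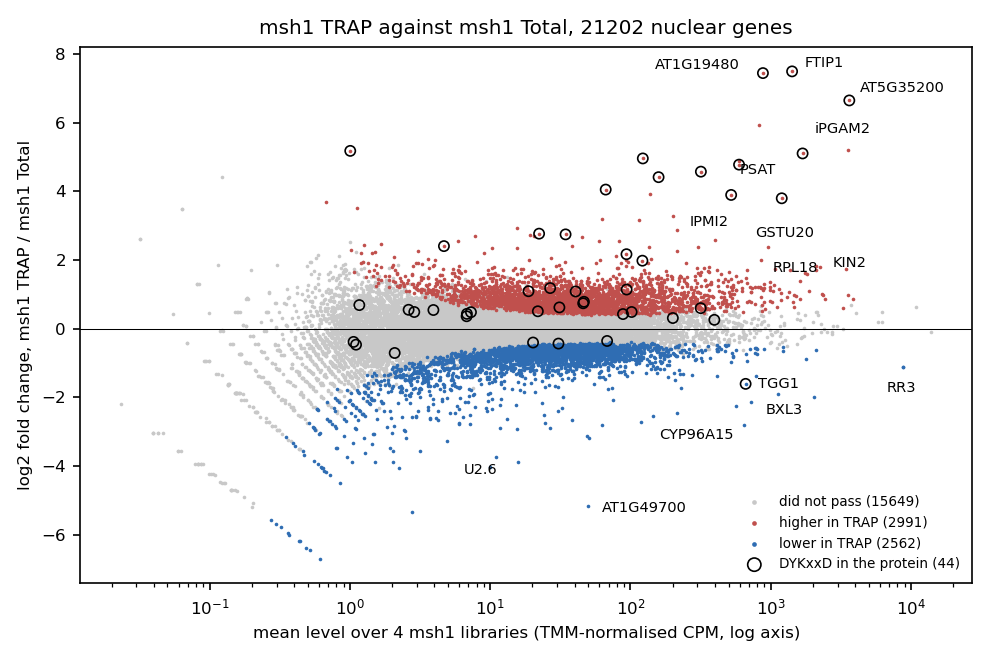
Log2 fold change of msh1 TRAP over msh1 Total (vertical axis) against the mean level over the 4 msh1 libraries in CPM (horizontal log axis), 1 point per gene. Red points passed as higher (2991), blue points as lower (2562), grey points did not pass (15649), and open circles mark the 44 tested genes whose proteins hold the residues D-Y-K-x-x-D, of which 16 rose at least 4-fold.

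The largest rises were also large in WT, and most of them belonged to transcripts whose proteins share residues with the tag. The FLAG epitope holds the residues D-Y-K-x-x-D, where x is any residue. In the RefSeq annotation 55 of 27444 proteins hold that pattern, and 44 of their genes were tested. Of the 12 largest rises among genes without an overlapping locus and with a mean of at least 10 CPM, 9 encode a protein with the pattern. The coding stretches of 6 of these 9, and of PSAT and UGE2, which also hold the pattern but are not among the 12, are shown because they encode the shared residues. They are read on the coding strand from the TAIR10.1 genome, with the codons of the pattern in capitals.
FTIP1 (chromosome 5, minus strand, chr5:2129513-2129572): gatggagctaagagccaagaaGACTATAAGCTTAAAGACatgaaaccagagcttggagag
AT1G19480 (plus strand, chr1:6744766-6744825): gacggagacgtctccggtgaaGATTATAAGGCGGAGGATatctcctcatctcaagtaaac
AT5G35200 (minus strand, 2 exons within chr5:13465382-13465509): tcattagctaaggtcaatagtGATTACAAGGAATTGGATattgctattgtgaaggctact
PSAT (plus strand, chr4:16905063-16905122): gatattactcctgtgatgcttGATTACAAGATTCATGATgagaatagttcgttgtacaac
AT3G62460 (minus strand, chr3:23105343-23105402): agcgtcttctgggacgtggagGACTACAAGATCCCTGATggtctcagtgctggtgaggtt
AT1G64880 (plus strand, chr1:24106001-24106060): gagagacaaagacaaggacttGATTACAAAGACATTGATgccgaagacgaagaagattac
AT1G71080 (minus strand, chr1:26811259-26811318): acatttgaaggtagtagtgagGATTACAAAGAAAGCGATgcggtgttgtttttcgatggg
UGE2 (plus strand, 2 exons within chr4:12432772-12432984): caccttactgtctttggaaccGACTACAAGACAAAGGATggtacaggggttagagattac
A pair of transcripts that rose as much encode a related pattern, Y-K-x-x-D, after glycine in AT1G13880 and after glutamate in iPGAM2. This comparison was chosen after their values were seen.
AT1G13880 (plus strand, chr1:4749840-4749899): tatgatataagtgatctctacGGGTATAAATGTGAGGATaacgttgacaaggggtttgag
iPGAM2 (minus strand, chr3:2610036-2610095): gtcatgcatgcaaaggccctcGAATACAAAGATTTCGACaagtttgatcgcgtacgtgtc

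FTIP1, a C2-domain protein that helps to export the florigen FT from phloem companion cells, stood at 14.7 and 16.7 CPM in msh1 Total and at 2518 and 3129 CPM in msh1 TRAP. It rose 180-fold (log2 7.49 ± 0.27, edgeR adjusted p = 2.91e-08). AT5G35200, an ENTH/ANTH/VHS-domain protein of the kind that acts in clathrin-coated vesicles, went from 76.6 and 67.3 CPM to 5216 and 9166 CPM. AT1G19480, annotated as a DNA glycosylase, went from 11.2 and 8.99 CPM to 961 and 2537 CPM. In each of these the TRAP libraries lay far above the Total libraries, and TRAP 2 was the higher of the TRAP libraries. iPGAM2, a glycolytic phosphoglycerate mutase, went from 183 and 190 CPM to 5147 and 8694 CPM, and AT1G13880, an ELM2-domain protein, from 27.6 and 25.2 CPM to 593 and 2645 CPM. PSAT, the phosphoserine aminotransferase of plastid serine synthesis, went from 88.2 and 103 CPM to 3207 and 3349 CPM, but overlaps AT4G09225 and is uncertain between the loci. None of these 6 passed the interaction, whose log2 values lay between −0.45 for AT5G35200 and 0.19 for AT1G19480, so no difference of these rises from WT was detectable.

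Not every transcript with the pattern rose. Of the 44 tested, 25 were higher (56.8%, where 14.1% of all genes were higher), 2 were lower and 17 did not pass, with a median log2 fold change of 0.76. In WT 29 of the 44 were higher, and 22 were higher in both genotypes, whose comparisons share no libraries. TGG1, a myrosinase of guard cells and myrosin cells that hydrolyses glucosinolates, holds the pattern and fell from 1064 and 929 CPM to 295 and 360 CPM. RBOHD, an NADPH oxidase of the plasma membrane, holds it and did not pass, at a log2 fold change of 0.43. The wider pattern Y-K-x-x-D after a residue other than D was held by 659 tested genes. Of these 9.71% were higher in msh1, where 14.1% of all genes were, and 103 genes were lower. In WT 9.1% were higher, where 3.41% of all genes were, and 5 genes were lower. At least 4-fold higher in msh1 were 10 of the 659, and 57 of all 21202 tested genes. UGE2, a UDP-glucose epimerase that feeds cell wall synthesis, and PRR3, a pseudo-response regulator of the circadian clock, hold D-Y-K-x-x-D and rose 6.71-fold and 4.5-fold. The part of antibody binding in these rises was not tested.

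**Figure D2:**
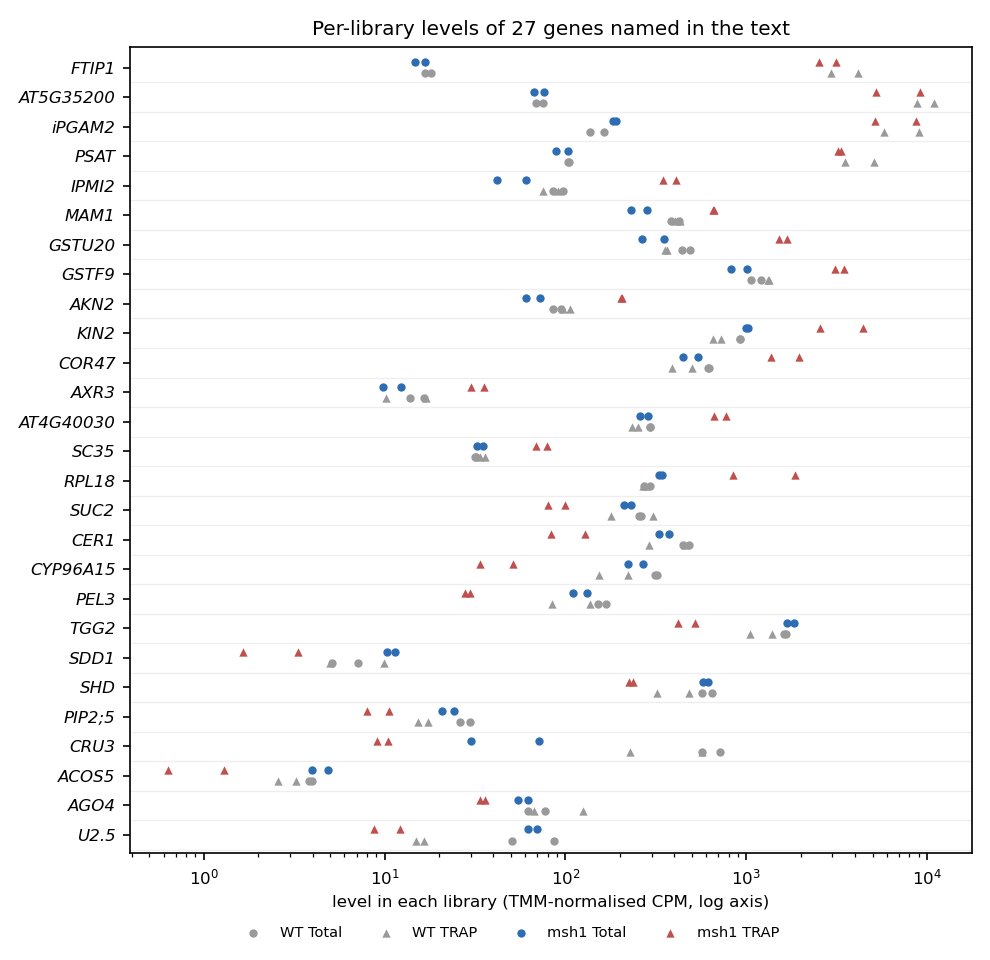
Level of 27 named genes in each of the 8 libraries, in CPM on a log axis. Circles are Total and triangles TRAP libraries, blue and red for msh1 and grey for WT. The msh1 TRAP libraries lie apart from msh1 Total in every gene drawn, whereas WT TRAP overlaps WT Total in some, such as MAM1 and SUC2. The genes were chosen mostly for their changes in msh1, so this contrast follows in part from the choice. Over all tested genes the msh1 libraries did not overlap for 62.5%.

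Beyond those transcripts, the mutant's TRAP libraries held more mRNA of sulfur metabolism and methionine-derived glucosinolates, the defence compounds of the cabbage family. All 8 chain elongation genes were tested and 6 rose, with a median log2 fold change of 1.24 against −0.03 over all genes. IPMI2, a small subunit of isopropylmalate isomerase, stood at 42.1 and 60.7 CPM in msh1 Total and at 411 and 345 CPM in msh1 TRAP. Its rise of 7.34-fold (log2 2.88 ± 0.20, edgeR adjusted p = 7.15e-06) had no counterpart in WT, at a log2 fold change of −0.13, and the interaction was 3.003 ± 0.28 (edgeR adjusted p = 0.000599). IPMI1, a second small subunit of that enzyme, rose by 1.82 and MAM1, the methylthioalkylmalate synthase that sets side-chain length, by 1.36. BCAT4, the aminotransferase that starts the pathway from methionine, rose by 1.66 and overlaps AT3G19700, which leaves it uncertain. IIL1, the large subunit shared with leucine synthesis, rose by 0.64, and BAT5, the transporter of the chain elongation keto acids, did not pass at 0.46. IMS2, also called MAM3, stood between 0.28 and 1.42 CPM in the msh1 libraries and did not pass.

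Among 19 further glucosinolate genes, 11 rose and 1 fell, and without msh1 Total 1 the counts were 7 and 1. GSTU20, a glutathione S-transferase of the core pathway, went from 265 and 349 CPM to 1684 and 1512 CPM, a 5.21-fold rise with an interaction of 2.75 ± 0.25 (edgeR adjusted p = 0.000599). FMO GS-OX1, which oxidises the side chain, rose by 1.91 ± 0.16. Outside the list CB5-C, a cytochrome b5 isoform, went from 37.8 and 50.2 CPM to 246 and 211 CPM and had an interaction of 2.65 ± 0.26 (edgeR adjusted p = 0.000907). GTR1, a glucosinolate importer of the plasma membrane, was the member that fell, by 0.84, and overlaps AT3G07835. Of 19 tested genes of serine and sulfur assimilation 9 rose and 1 fell, a count that was 6 and 0 without msh1 Total 1. These rises include PSAT, at 5.10, which holds D-Y-K-x-x-D and is uncertain, so the list is not wholly apart from the transcripts with the pattern. The adenosine phosphosulfate kinases AKN2 and APK, which make the sulfate donor used in glucosinolates, rose by 1.63 ± 0.15 and 1.55 ± 0.15. APR1, which reduces activated sulfate, went from 121 and 124 CPM to 321 and 324 CPM. SULTR1;2 and SULTR2;1, membrane transporters of sulfate, did not pass, at −0.13 and −0.15.

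Glutathione S-transferases, which conjugate glutathione to reactive compounds, were added as a list after values were seen, and the list shares GSTU20 and GSTF11 with the glucosinolate genes. Of 33 tested members 16 rose and 0 fell, with a median of 0.68, and 13 passed the interaction as higher in msh1. Leaving out msh1 Total 1 gave 10 and leaving out msh1 Total 2 gave 8, and with a length trend removed 12 rose and 1 fell. GSTF9 went from 821 and 1014 CPM to 3110 and 3454 CPM, and GSTU27 from 15.7 and 18.9 CPM to 85.6 and 117 CPM. GSTF9 passed the interaction, at 1.61 ± 0.25 (edgeR adjusted p = 0.00265), whereas GSTU27 also rose in WT, by 1.82. PMSR2, a peptide methionine sulfoxide reductase that repairs oxidised protein, rose 4.1-fold, and MT2B, a metallothionein, rose from 613 and 689 CPM to 2101 and 2122 CPM. MT2B fell in WT TRAP, by 0.74 (edgeR adjusted p = 0.0197), and its interaction was 2.44 ± 0.23. Reads without a unique alignment were left out, so near-identical paralogs in this family can lose reads and their levels can be too low.

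Cold and drought genes rose in msh1 TRAP, 12 of 26 tested, and 1 fell, with a median of 0.69. The dehydrins COR47 and ERD14, hydrophilic proteins of dehydrated cells, went from 542 and 446 CPM to 1369 and 1960 CPM, and from 1003 and 961 CPM to 2774 and 3653 CPM. KIN2, a small cold-induced protein, went from 1025 and 997 CPM to 2548 and 4423 CPM. Its interaction was 2.21 ± 0.32 (edgeR adjusted p = 0.00229), and 11 of the 26 genes passed the interaction as higher in msh1, with 0 as lower. RD20, a caleosin of oil bodies, was the member that fell, by 0.54. Of 16 early touch and wound genes 7 rose, and 2 without msh1 Total 1. TCH2, a calmodulin-like protein, rose by 0.96 and JAZ1, a repressor of jasmonate signalling, by 1.20. Of 22 jasmonate genes 10 rose and 1 fell, but 4 and 0 with msh1 TRAP 2 left out and 3 and 0 with msh1 Total 2 left out. LOX2, the plastid lipoxygenase at the start of jasmonate synthesis, was the member that fell, from 1548 and 1455 CPM to 879 and 1024 CPM. It rose in WT TRAP by 1.38, and the interaction was −2.04 ± 0.31 (edgeR adjusted p = 0.00249).

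Within the auxin list the nuclear repressors and the membrane carriers moved in opposite directions. Of 20 tested genes 12 rose, and these encode Aux/IAA proteins, short-lived repressors of auxin response, and 5 fell, which encode carriers. The Aux/IAA genes IAA6 and IAA29 and the carrier gene PIN3 did not pass. AXR3 went from 9.8 and 12.4 CPM to 30.2 and 35.6 CPM, and IAA2 from 91 and 61.1 CPM to 172 and 243 CPM. Among the carriers that fell, the efflux carrier PIN7 fell by 0.83, the influx carrier AUX1 by 0.68, and the ATP-driven transporters ABCB1 and ABCB19 by 0.69 and 1.09. The groups of libraries did not overlap for any of these 6 genes, as they did not for 62.5% of all genes. The 2 kinds also differ in length, at 1317 nt for the AXR3 transcript and 4333 nt for that of ABCB19. Without msh1 Total 2 the counts were 7 and 2.

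Most histone and splicing factor genes that passed were higher. Of 29 histone and cell division genes 14 rose and 2 fell. Leaving out msh1 Total 2 gave 9 and 0. AT4G40030, an H3.3 histone gene, went from 258 and 285 CPM to 666 and 770 CPM, and HTB4, an H2B gene, from 210 and 221 CPM to 491 and 578 CPM. Histone copies are near-identical, so counts are uncertain between them. HIK, a kinesin, and PLE, a microtubule-bundling protein, both of cell plate formation, fell by 0.57 and 0.56. Of 22 splicing factor genes 13 rose and 0 fell, with 7 rising when msh1 Total 1 was left out and 8 when msh1 Total 2 was, among them SC35, SCL30A and SR45, by 1.13, 1.03 and 0.98. Such proteins bind exons and help to place the spliceosome. RS41, which holds D-Y-K-x-x-D and overlaps AT5G52045, rose 14.9-fold and is uncertain. Of 23 translation factor genes 5 rose and 4 fell, with a median of 0.01 that was −0.03 with upper-quartile scaling. Leaving out msh1 Total 1 gave 3 and 2, and leaving out msh1 Total 2 gave 4 and 1. FBR12, an eIF5A gene, rose from 524 and 508 CPM to 1006 and 1345 CPM, and EIF3G1, a small eIF3 subunit, by 1.10. EIF3A and EIF3C, large eIF3 subunits, fell by 1.05 and 0.55. Of 28 cytosolic ribosomal protein genes 13 rose and 0 fell, but 5 rose when either msh1 Total library was left out and 6 when msh1 TRAP 2 was. With a length trend removed 6 rose and 1 fell. AT3G09630 and AT5G02870, which encode RPL4, rose by 1.38 and 1.19, and they rose in WT by 1.98 and 1.95.

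Some photosystem genes rose, and most Calvin cycle genes did not pass. Of 37 photosystem and electron transport genes 17 rose and 0 fell, and the number rising was 6 when msh1 Total 1 was left out, 4 for msh1 Total 2, 26 for msh1 TRAP 1 and 9 for msh1 TRAP 2. With a length trend removed 8 rose. DRT112, a plastocyanin, went from 2341 and 2426 CPM to 3900 and 5449 CPM, and FED A, a ferredoxin, from 1501 and 1573 CPM to 2578 and 3677 CPM. Among 15 Calvin cycle genes 1 rose and 4 fell, although 0 passed when either msh1 Total library was left out, and 0 rose when msh1 TRAP 2 was. AT3G60750, a transketolase, went from 2202 and 2405 CPM to 1356 and 1160 CPM, with an interaction of −1.49 ± 0.31 (edgeR adjusted p = 0.00943). SBPASE and PRK, which regenerate the carbon dioxide acceptor, fell by 0.66 and 0.57. TIC110, a scaffold of the plastid protein import machinery, went from 241 and 247 CPM to 114 and 123 CPM. It rose in WT TRAP by 1.01, and its interaction was −2.05 ± 0.28 (edgeR adjusted p = 0.00217).

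**Figure D3:**
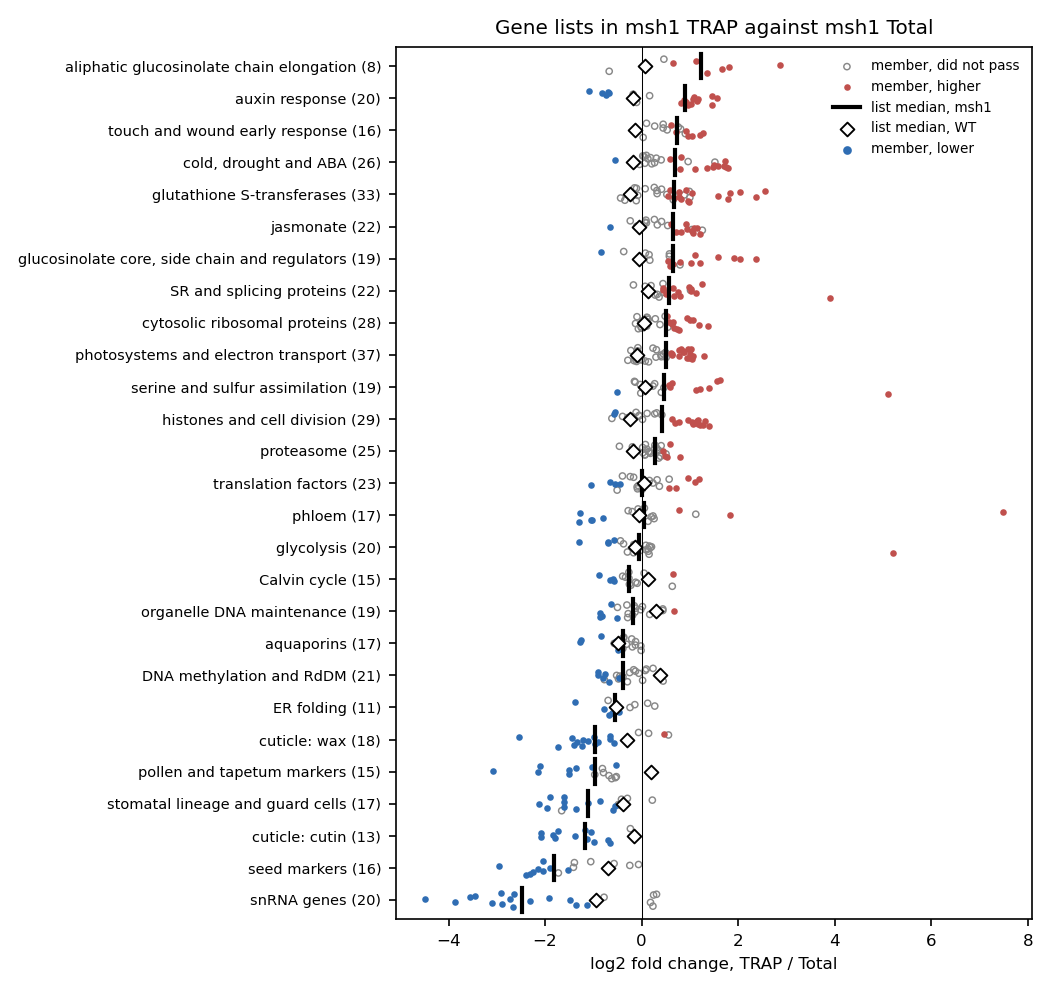
Log2 fold change of TRAP over Total for the tested members of 27 gene lists, with the number tested in brackets. Points are members in msh1, red or blue where they passed and open where they did not, bars are the list medians in msh1 and diamonds those in WT. The medians in msh1 run from 1.24 for glucosinolate chain elongation to −2.47 for snRNA genes, and most of those in WT lie nearer 0.

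Cuticle genes fell. The cuticle is a layer of cutin polyester and wax that the epidermis secretes. Of 13 cutin genes 12 fell and 0 rose, and of 18 wax genes 14 fell and 1 rose, where 12.1% of all genes fell. Of the 31 together, 18 passed the interaction as lower in msh1. CYP96A15, the midchain alkane hydroxylase, went from 223 and 267 CPM to 51.1 and 33.6 CPM, a fall of 5.8-fold (log2 −2.54 ± 0.23, edgeR adjusted p = 6.25e-05). CER1 and CER3, which together make alkanes from very-long-chain acyl groups, fell by 1.74 and 1.40, and KCS6, the condensing enzyme that lengthens those groups, by 1.34. PEL3, an acyltransferase needed for cutin, went from 110 and 132 CPM to 27.8 and 29.6 CPM, and the cutin hydroxylases CYP86A4 and CYP86A7 fell by 1.79 and 2.09. LTPG2, a lipid transfer protein that helps wax export, rose by 0.46, and its relative LTPG1 had 0.56 and did not pass (edgeR adjusted p = 0.1). The LTPG2 call was lost when either msh1 Total library, msh1 TRAP 2 or either WT Total library was left out, and with the length trend removed its value was 0.12. ADS4, an acyl desaturase outside the lists, fell by 2.17.

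Markers of epidermal identity gave a smaller share of falls than cuticle genes. Of 10 tested identity genes 1 rose and 3 fell, where 14.1% of all genes rose and 12.1% fell. The summed level of the identity genes was 346 and 353 CPM in the Total libraries of msh1, against 307 and 271 CPM in TRAP. PDF1, a marker of the outermost cell layer, went from 36.3 and 38.5 CPM to 14.9 and 13.2 CPM, whereas ATML1, the homeodomain regulator of that layer, went from 57.7 and 62.2 CPM to 46.5 and 41.6 CPM. MYB16, a regulator of cuticle formation, rose by 0.55, and SHN1, another, did not pass. With upper-quartile factors 0 of the identity genes rose and 4 fell, and with a length trend removed 0 rose and 2 fell. With DESeq2 size factors 2 rose and 2 fell. Wax genes summed to 3085 and 3261 CPM in Total and 1923 and 2112 CPM in TRAP, and cutin genes to 729 and 821 CPM and to 337 and 290 CPM. When any single library was left out, 2 to 4 of the identity genes fell and 0 to 2 rose. The part of cell type in the cuticle fall was not tested.

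Stomatal and guard cell genes fell too, 11 of 17 with 0 rising, and 7 fell when msh1 Total 1 was left out and 6 when msh1 Total 2 was. SDD1, a subtilase that restrains stomatal density, went from 11.4 and 10.3 CPM to 3.31 and 1.65 CPM, with an interaction of −2.44 ± 0.51 (edgeR adjusted p = 0.00957). The receptor kinase ERL1 and the receptor-like protein TMM, which read patterning peptides, fell by 1.97 and 1.35. KAT1 and KAT2, potassium channels of guard cells, fell by 1.11 and 1.61. FMA, the transcription factor of the last guard cell division, fell by 0.60, and MYB60, a guard cell factor, stood at 3.36 and 2.68 CPM and at 2.68 and 2.24 CPM and did not pass. TGG2, the partner myrosinase of TGG1, went from 1843 and 1688 CPM to 419 and 524 CPM.

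Of 17 phloem genes 3 rose and 5 fell, and 2 rose and 3 fell without msh1 Total 2. Without FTIP1 the list summed to 794 and 898 CPM in msh1 Total and to 677 and 610 CPM in msh1 TRAP, so the large rise of the list's total came from FTIP1. SUC2, the sucrose loader of companion cells, went from 212 and 230 CPM to 99.2 and 80.5 CPM, with an interaction of −1.19 ± 0.31 (edgeR adjusted p = 0.0234). SEOR1 and CalS7, which build sieve element filaments and callose, fell by 1.02 and 1.27, and APL, the regulator of phloem identity, had 0.13 and did not pass. NAC045, a regulator of sieve element enucleation, rose by 1.84 but overlaps GSTF11, which rose by 2.05, and is uncertain.

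Some ER chaperone and aquaporin genes fell. Of 11 chaperone genes of the endoplasmic reticulum (ER) 6 fell and 0 rose, though 2 fell when either msh1 Total library was left out, 3 when msh1 TRAP 1 was, and 2 with a length trend removed. SHD, the ER member of the HSP90 family, went from 574 and 615 CPM to 235 and 225 CPM, and the calreticulin CRT1b and the HSP70 BIP1 fell by 0.77 and 0.67. Of 17 aquaporins 5 fell and 0 rose, with 8 falling when msh1 TRAP 2 was left out, 2 for msh1 Total 2, and 3 for msh1 Total 1 or either WT Total library. PIP2;5 and PIP2;8, water channels of the plasma membrane, fell by 1.28 and 1.26, and TIP2;2, of the vacuole, by 0.85. These lists had like medians in WT, at −0.53 against −0.54 in msh1 for the ER genes and −0.485 against −0.38 for aquaporins.

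Genes whose proteins begin with a hydrophobic stretch were described across the genome, among them 10 of the 11 ER chaperone genes and 4 of the 17 aquaporins. The stretch was taken as present where the mean Kyte-Doolittle hydropathy over any 11 residues of the first 35 was above 2. This measure also catches signal anchors and membrane spans near the start, and it is no signal peptide call. Among 19900 tested protein-coding genes, 3687 have it. Of these 21.8% were lower and 4.69% higher in msh1 TRAP, and of the 16213 without it 10.2% were lower and 16.6% higher. The median log2 fold changes were −0.32 and 0.05. In WT the medians were −0.22 and −0.03. The shares called lower were 11.5% and 4.08% without msh1 Total 1, 9.38% and 3.41% without msh1 Total 2, and 14.1% and 6.62% without msh1 TRAP 2. Leaving out any single library kept the msh1 median of the hydrophobic group between −0.35 and −0.266 and that of the others between 0.028 and 0.105.

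Coding length went with the fold change in opposite directions in the genotypes. The median log2 fold change in msh1 was 0.44 for the 2639 genes with at most 500 nt of coding sequence and −0.44 for the 1085 genes with more than 3000 nt. The msh1 medians were 0.253 and −0.296 without msh1 TRAP 2. In WT the same bins had −0.26 and 0.26. Of the shortest genes 30.8% were higher and 2.58% lower in msh1 TRAP, and of the longest 2.3% were higher and 34.3% lower. Across the 19900 genes Spearman's rho of fold change and coding length was −0.439 in msh1 and 0.345 in WT, and genes are not independent replicates. The rho stayed between −0.46 and −0.321 in msh1, and between 0.235 and 0.381 in WT, when any single library was left out. A hydrophobic start went with a lower median in each length bin in msh1, from 0.03 against 0.53 in the shortest to −0.49 against −0.43 in the longest. Median length of the whole transcript was 1259 nt for genes called higher and 2252 nt for genes called lower. No value here measures RNA integrity.

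**Figure D4:**
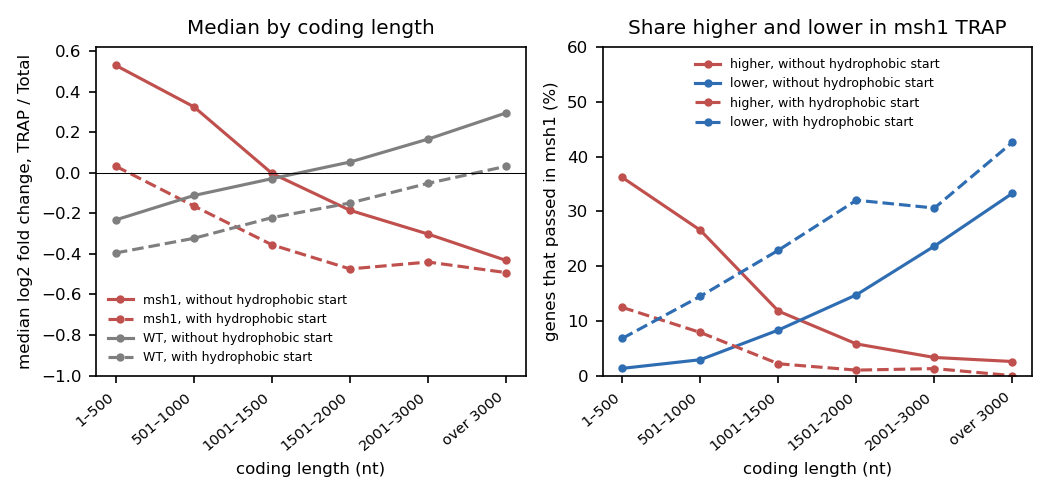
Left, median log2 fold change of TRAP over Total by coding length bin, in msh1 (red) and WT (grey), for genes without (solid) and with (dashed) a hydrophobic N-terminal stretch. Right, the share of genes in each bin that passed as higher (red) or lower (blue) in msh1 TRAP, with the same line styles. The lines for msh1 fall and those for WT rise with length, and the dashed lines lie below the solid ones on the left.

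Most DNA methylation and organelle genome genes did not pass in msh1, and most of those that did were lower in TRAP. Of 21 DNA methylation genes 6 fell and 0 rose, with a median of −0.39 against 0.38 in WT, and 7 passed the interaction as lower. MET1, the maintenance methyltransferase, went from 35.5 and 30.5 CPM to 21 and 20.3 CPM, and it rose in WT by 0.82. AGO4 and NRPD1B, which act in RNA-directed DNA methylation, fell by 0.75 and 0.80. Leaving out msh1 Total 1 gave 2 falls, and leaving out msh1 Total 2 or msh1 TRAP 2 gave 1. With a length trend removed 0 fell and 1 rose. Of 19 organelle DNA maintenance genes 5 fell and 1 rose, and 9 passed the interaction as lower. AT1G30680, the organelle primase-helicase, and SCA3, a plastid RNA polymerase, fell by 0.86 and 0.82. GYRB2, a gyrase subunit, fell by 0.87, whereas GYRA and GYRB1 did not pass in msh1, at 0.17 and −0.28. The falls in this list numbered 3 when msh1 Total 1 or msh1 TRAP 1 was left out, 2 when msh1 Total 2 was, and 5 with a length trend removed.

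Markers of seeds and of anthers also fell. Of 16 tested seed genes 9 fell and 0 rose. The storage globulins CRU3 and CRA1 went from 30.2 and 71.8 CPM to 10.4 and 9.07 CPM, and from 32.4 and 75.7 CPM to 14 and 8.01 CPM. All seed markers summed to 124 and 309 CPM in msh1 Total and to 65.5 and 47 CPM in msh1 TRAP, and msh1 Total 2 was the higher of the Total libraries. WT Total stood at 2649 and 2189 CPM. Leaving out msh1 Total 2 gave 5 falls and leaving out msh1 TRAP 2 gave 4. Of 15 pollen and tapetum genes 8 fell and 0 rose, with a median of −0.97 against 0.20 in WT. ACOS5 and CYP703A2, which make sporopollenin precursors in the tapetum, went from 4.85 and 3.94 CPM to 0.637 and 1.3 CPM, and from 2.89 and 2.45 CPM to 0.255 and 0.353 CPM. The TRAP values of CYP703A2 rest on 2 and 3 counts. Leaving out msh1 Total 1 gave 5 falls and leaving out msh1 Total 2 gave 4. Of 7 floral organ identity genes none passed, and the stem cell marker CLV3 had 0 counts in the msh1 libraries.

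Small RNAs of the spliceosome and of protein targeting fell. Of 20 tested spliceosomal snRNA genes 15 fell and 0 rose, with a median of −2.47 against −0.95 in WT. In WT 6 fell and 0 rose, and 3 of the 20 passed the interaction as lower in msh1. U2.6 went from 32 and 27.4 CPM to 1.27 and 2.71 CPM, and U2.5 from 69.5 and 62.5 CPM to 8.79 and 12.2 CPM. Copies of a snRNA are near-identical, so counts are uncertain between them. AT7SL-1, the RNA core of the particle that brings ribosomes making secreted proteins to the ER, went from 3206 and 3311 CPM to 1131 and 510 CPM. It fell in WT too, where its raw counts were 40677 and 49585 in Total and 3983 and 4845 in TRAP. Neither kind of RNA is translated. Among protein-coding genes with a mean of at least 10 CPM the deepest fall was that of AT1G49700, a plant protein of unknown function, from 102 and 91.2 CPM to 3.44 and 2 CPM. AT1G49700 fell in WT too, with raw counts of 1691 and 1097 in Total and 43 and 42 in TRAP. BXL3, a wall beta-xylosidase, went from 1274 and 1062 CPM to 365 and 173 CPM. It fell less than in WT, where the log2 fold change was −3.98, and its interaction was 1.86 ± 0.47 (edgeR adjusted p = 0.0212).

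Single genes outside the lists rounded out both ends. XTH7, an enzyme that cuts and rejoins wall xyloglucan, went from 17.9 and 29.7 CPM to 167 and 116 CPM, and ENODL18, an early nodulin-like protein, from 5.79 and 4.34 CPM to 29.4 and 36.9 CPM. Both also rose in WT TRAP, by 1.76 and 3.06, and neither passed the interaction. DR4, named for its fall in drought, went from 5.04 and 5.05 CPM to 28.5 and 23.2 CPM with no rise in WT, at −0.01, and its interaction was 2.37 ± 0.29 (edgeR adjusted p = 0.0019). ATMS1, a cobalamin-independent methionine synthase, fell from 2430 and 2641 CPM to 1692 and 1599 CPM. AGO5, an Argonaute protein, stood at 3.92 and 6.78 CPM in msh1 Total and at 2.42 and 1.18 CPM in msh1 TRAP, and it rose in WT by 1.28. Its interaction was −2.88 ± 0.61 (edgeR adjusted p = 0.00978). RR3, which acts in cytokinin signalling, had the highest level of those that fell, from 12509 and 11439 CPM to 4774 and 6358 CPM. Its counts nearly equal those of the overlapping noncoding locus AT2G09250, at 12440 and 11420 CPM and 4751 and 6370 CPM, so they are uncertain between these loci. RR3 fell by 3.10 in WT, more than in msh1, with an interaction of 1.99 ± 0.35 (edgeR adjusted p = 0.00473).

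**Figure D5:**
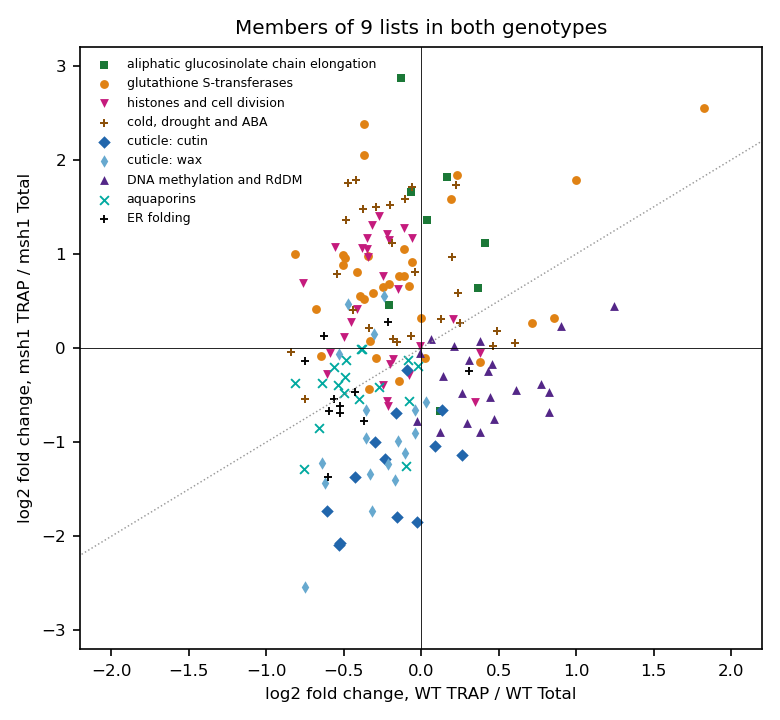
Log2 fold change of TRAP over Total in msh1 (vertical) against that in WT (horizontal) for the members of 9 lists, with the line of equality dotted. Most glucosinolate, glutathione S-transferase, cold and histone genes lie above the line, most cutin, wax and DNA methylation genes below it, and aquaporins and ER folding genes near it.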

How the data were processed

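RNA was extracted from floral stem with a plant RNA kit and sequenced as TruSeq v2 libraries, which do not mark strand, per the labels' protocols. The authors deposited raw counts per gene and library. The submitters' processing notes name TAIR10 and DESeq2, and no source used here gives the aligner or the counter. The 5 summary lines of each library stayed out of library sizes: reads with no feature were 38.5% to 41.7% as a share of gene, no-feature, ambiguous and not-unique counts together, and reads without a unique alignment 12.4% to 18.9%. Gene counts were 7568728 to 13611280 per library.

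All 8 libraries entered 1 edgeR 4.0.16 fit (R 4.3.3) of 4 groups, with TMM factors, filterByExpr, 4 residual degrees of freedom and quasi-likelihood F tests, with Benjamini-Hochberg adjustment over 21202 genes. limma 3.58.1 and DESeq2 1.42.0 served edgeR and an alternative. CPM are TMM-normalised. The standard error is the size of the log2 fold change over the square root of F. In data simulated for the msh1 contrast with 50 genes per fold size, the test was checked against known changes. The simulated data had the same spread in every group and no length trend, so that check does not cover these features of the real libraries. A gene was called uncertain where its exons overlap a locus with at least 0.2 of its counts. Symbols, sequences and coordinates come from RefSeq's TAIR10.1 annotation, matched by locus. In an alternative a smooth trend of each library on log2 transcript length (lowess, span 0.3) was removed as an offset. Other alternatives were other scalings, filters, DESeq2, a replicate block and each library left out.

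Members, gene lists and alternatives were chosen with earlier results of these data known. Named genes were those with the largest fold changes, changes in CPM or interaction, up to 4 called members per list and direction, and members whose role is described. The values of 1 auxin gene are not reported here.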

Additional observations from a re-analysis of the deposited data

Results flagged for a closer look

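The genotypes differed in the TRAP over Total difference, by the interaction test, for 73 of the genes named above. Of these 38 were higher in msh1 and 35 lower, and across all tested genes 15.6% passed that test. Named genes were picked in part for a large interaction or a call in msh1, so their share cannot be compared with that of all genes. Values are the log2 difference between fractions in msh1 minus that in WT. Coding length went with the fold change in opposite directions in the genotypes, and the values below are not adjusted for length. With a length trend removed, 1203 of the 3312 genes called in the interaction kept their call. Among genes of glucosinolates and sulfur the value was 3.003 for IPMI2, 1.65 for IPMI1, 1.32 for MAM1, 1.73 for BCAT4, 2.75 for GSTU20, 2.42 for GSTF11, 1.87 for FMO GS-OX1 and 2.65 for CB5-C. It was 1.46 for AKN2, 1.48 for APK and 1.38 for APR1. Stress and redox genes gave 1.61 for GSTF9, 2.31 for PMSR2, 2.44 for MT2B, 2.23 for COR47, 1.77 for ERD14, 2.21 for KIN2, 1.13 for TCH2, 1.35 for JAZ1, −2.04 for LOX2 and 2.37 for DR4. The tag's own gene RPL18 gave 2.06 and was high in the msh1 TRAP libraries. Auxin, histone, splicing and translation genes gave 1.72 for AXR3, 1.34 for IAA2, −0.85 for ABCB1, 1.67 for AT4G40030, 1.63 for HTB4 and −0.92 for HIK, and 1.01 for SC35, 0.87 for SCL30A, 0.76 for SR45, 1.94 for RS41, 1.51 for FBR12, 0.95 for EIF3G1 and −0.91 for EIF3A. Plastid genes gave 1.21 for DRT112, 1.32 for FED A, −1.49 for AT3G60750 and −2.05 for TIC110. Cuticle genes gave −1.79 for CYP96A15, −1.42 for CER1, −1.23 for CER3, −1.01 for KCS6, −1.55 for PEL3, −1.64 for CYP86A4, −1.56 for CYP86A7, 0.94 for LTPG2 and −1.22 for ADS4. Guard cell and phloem genes gave −2.44 for SDD1, −1.47 for ERL1, −1.31 for TMM, −1.87 for KAT2, −1.19 for TGG1, −1.48 for TGG2, −1.19 for SUC2, −1.29 for CalS7 and 2.12 for NAC045. Genes of DNA methylation and organelle DNA gave −1.50 for MET1, −1.22 for AGO4, −2.88 for AGO5, −1.09 for NRPD1B, −1.43 for AT1G30680, −1.33 for SCA3, −1.08 for GYRB2, −1.17 for GYRA and −1.34 for GYRB1. The remaining values were −1.16 for PIP2;8, −1.89 for CRA1, −1.75 for ACOS5, 1.86 for BXL3, −0.94 for ATMS1, 1.99 for RR3 and 2.01 for AT2G09250. RR3 and AT2G09250 overlap and have nearly equal counts, so they cannot be taken as separate results. NAC045 overlaps GSTF11, and BCAT4 and RS41 overlap other loci, so their values are uncertain too.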

How the results depend on the processing

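Across the alternatives tried, 0 of the 5553 genes called in msh1 were called in the opposite direction. Leaving out 1 library at a time gave 2218 to 7114 called genes in msh1, 1009 to 5575 in the interaction and 167 to 2310 in WT. A fit of the 4 libraries of a genotype alone called 3548 genes in msh1 and 1871 in WT. Without a filter on low counts WT had 2011, and with a length trend removed the interaction had 1526. With the replicate number as a block the counts were 3592 in msh1, 1516 in the interaction and 468 in WT. Same-numbered libraries deviated apart (r = −0.198 in msh1 and −0.243 in WT). With 2 libraries a group this cannot show whether they came from the same plants. The labels do not state a pairing, and the block was not used for the results. A crossed pairing, added after seeing the data, gave 7422, 5275 and 2580. DESeq2 called 4792 genes in msh1. Of the called genes 53.9% were higher, and 48.6% with upper-quartile factors and 61% with a mean of at least 10 counts.

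Of 130 named genes, 88 kept their direction and their side of the threshold under every alternative and 31 lost a call under at least 1. Values changed sign only for genes that did not pass. MSH1 (−0.00) was 0.0255 with DESeq2 size factors, 0.0262 with DESeq2, 0.0515 with a mean of at least 10 counts and 0.34 with a length trend removed. With that trend removed SULTR1;2 was 0.17, SULTR2;1 0.0838, IAA29 −0.0899 and PIN3 0.0846. Leaving out 1 library gave −0.31 to 0.29 for MSH1, −1.35 to 0.95 for IMS2, −0.39 to 0.16 for SULTR1;2, −0.29 to 0.0166 for SULTR2;1, −0.0459 to 0.40 for GYRA, −0.28 to 0.0759 for IAA6 and −0.18 to 0.50 for IAA29. The cause was not tested. With 2 libraries a group, small changes and genes of few counts are the least certain, and a call lost when a library is left out also reflects fewer samples.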
